A study of Rattus norvegicus with 44 samples.

Results

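R2 is a development compound known here only by its code name, and its dose of 300 mg/kg/day was compared with vehicle in the livers of male Wistar rats 24 hours after dosing. The samples were those that the labels place in study 4, 5 livers from rats given R2 and 4 from rats given vehicle, or 9 of the 44 arrays of the series. All rats were 8 weeks old when dosed by oral gavage once daily, the vehicle was a citric acid buffer, and every animal was killed with carbon dioxide 24 hours after its last dose. No genetic modification or second agent is named for either group. RNA came from a slice of the left lateral lobe, and each array (Affymetrix Rat Genome U34, chip A) holds 1 liver labelled as biotinylated cRNA. The other arrays of the series belong to 3 further studies of a second coded compound, R1, of which the 24 hour group at 100 mg/kg/day (3 livers) and its own vehicle (3 livers) are set beside R2 at the end.

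The liver is a main site of cholesterol synthesis, turns part of it into bile acids, and clears foreign compounds with cytochrome P450 and conjugation enzymes. Sterol synthesis is switched on by SREBP-2 when the cell's sterol content falls, drug metabolising enzymes are induced through the nuclear receptors CAR and PXR, and NRF2 raises antioxidant and glutathione enzymes through antioxidant response elements. Hepatocytes also break down amino acids, feed the nitrogen into the urea cycle, and make and store glucose.

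Values are array signals, and a difference is R2 minus vehicle on the log2(signal + 2.89) scale with its standard error (SE), so a change of a dim gene is understated. A gene was called where limma, fitted on all 44 arrays, gave it an adjusted p (Benjamini-Hochberg) under 0.05, and genes are represented by their probe set with the highest mean. Of 6361 probe sets tested, 974 (15.3%) were called, 473 higher in R2 (7.44%) and 501 lower (7.88%). Counted by gene, 570 of 3696 (15.4%) were called, 245 higher (6.63%) and 325 lower (8.79%), and the median difference over all genes tested was -0.07. Hepatocyte products marked the tissue as labelled: albumin (Alb) gave signals of 12071, 12071, 10952 and 11688 with vehicle and 12071, 11688, 12597, 10598 and 12597 with R2, near the top of the common scale of 13236, and the groups overlapped. Nothing in the labels says whether the replicates were dosed or processed on separate days, so the p-values speak only of variation among livers within groups. That variation was pooled over the groups of all 44 arrays and is not that of the R2 livers and their vehicle alone. With each study fitted alone, 679 probe sets were called for R2, 636 of them among the 974.

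R2 replicates 1 and 2 stood apart from R2 replicates 3 to 5. On the first principal component (36.7% of the variance) the vehicle arrays lay between -28.7 and -23.4 and the R2 arrays between 6.08 and 41.5, with replicates 1 and 2 farthest out at 36.2 and 41.5. On the second component (17.6%) replicates 1 and 2 lay at 17.4 and 22.5 and replicates 3 to 5 at -35.5, -17.5 and -18.4. The ratio of 3' to 5' signal of the GAPDH control, a common check of RNA integrity, was 1.87 and 2.01 in replicates 1 and 2, against 0.96 to 1.21 in replicates 3 to 5 and 1.14 to 1.29 in vehicle, whereas the beta-actin ratio overlapped (1.74 to 2.81 with R2 and 1.40 to 2.88 with vehicle). The part of this difference in the results was not tested. Without both arrays 662 probe sets were called, 573 of them among the 974, and most gene group counts below are also given without them.

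**Figure D1:**
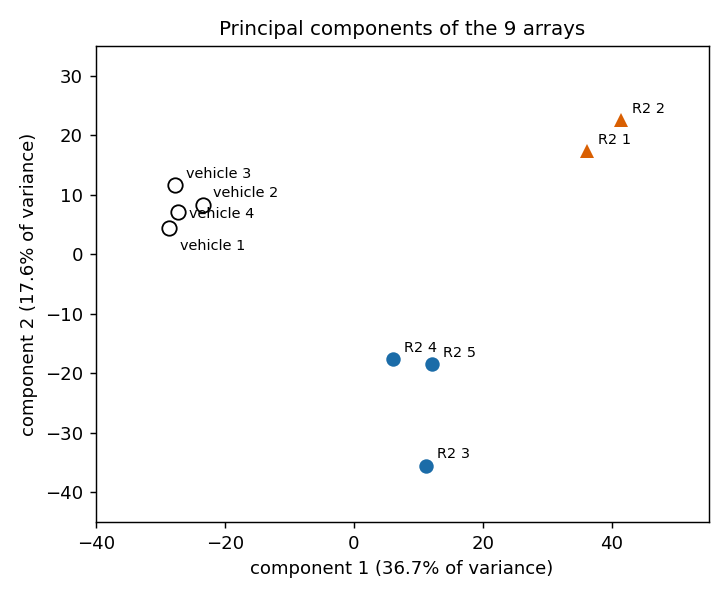
The 9 arrays of study 4 on the first and the second principal component of log2 signal. Open circles are vehicle livers, triangles R2 replicates 1 and 2 (36.2 and 41.5 on component 1) and filled circles R2 replicates 3 to 5, which lie below 0 on component 2 (-35.5 to -17.5).

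Enzymes of cholesterol synthesis rose together. Of 14 genes of the pathway tested, 13 were higher in R2, none was lower, and the median difference was 2.57, against -0.07 over all genes. All 13 had every R2 liver above every vehicle liver, which held for 231 of the 3696 genes tested (6.25%). Without R2 replicates 1 and 2, all 14 were called. The largest rise in the pathway was that of Acat2, the cytosolic thiolase that joins acetyl-CoA units at the start of the pathway. Acat2 gave 52.4, 83.2, 51.9 and 132 in vehicle replicates 1 to 4 and 2186, 1761, 2315, 1469 and 1883 in R2 replicates 1 to 5. Its lowest R2 liver was far above its highest vehicle liver, a difference of 4.62 ± 0.33 (limma adjusted p = 1.19e-14) that both of its probe sets called.

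The mevalonate steps followed. Mevalonate kinase (Mvk) rose by 2.63 ± 0.21 and mevalonate diphosphate decarboxylase (Mvd) by 3.44 ± 0.33. Idi1, the isomerase that makes dimethylallyl diphosphate, gave 235, 193, 167 and 189 with vehicle and 1816, 1994, 5424, 4005 and 3902 with R2, a rise of 3.99 ± 0.30 (limma adjusted p = 1.08e-13). R2 replicates 1 and 2 were the 2 lowest of the 5 and were still well above every vehicle liver. Squalene epoxidase (Sqle), which commits squalene to sterols, showed the same order, with 141, 109.7, 77.3 and 130.4 in vehicle and 790.4, 733, 2552, 1781 and 1601 in R2 (a rise of 3.54 ± 0.30, limma adjusted p = 2.22e-12).

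Among the sterol-forming enzymes, lanosterol demethylase (Cyp51) gave 299, 399, 262 and 439 with vehicle and 3412, 2845, 2456, 2884 and 3604 with R2. All R2 livers were above all vehicle livers, and the rise of 3.13 ± 0.20 (limma adjusted p = 5.43e-16) was called on 5 of 5 probe sets. Lanosterol synthase (Lss), which closes the sterol rings, rose by 2.33 ± 0.20. The C4 demethylation enzyme Msmo1 rose by 2.83 ± 0.20 and Hsd17b7, which acts in the same step, by 2.50 ± 0.25. Dhcr7, which makes cholesterol from its last precursor in one branch of the pathway, gave 135, 315, 279 and 383 with vehicle and 1834, 2329, 1059.9, 954 and 1781 with R2, and rose by 2.52 ± 0.31 (limma adjusted p = 4.07e-08). The exception was Nsdhl, another C4 demethylation enzyme, with a difference of 0.49 that was not called. Only 3 genes of cholesterol uptake and its regulation were tested, and none was called (median -0.01).

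**Figure D2:**
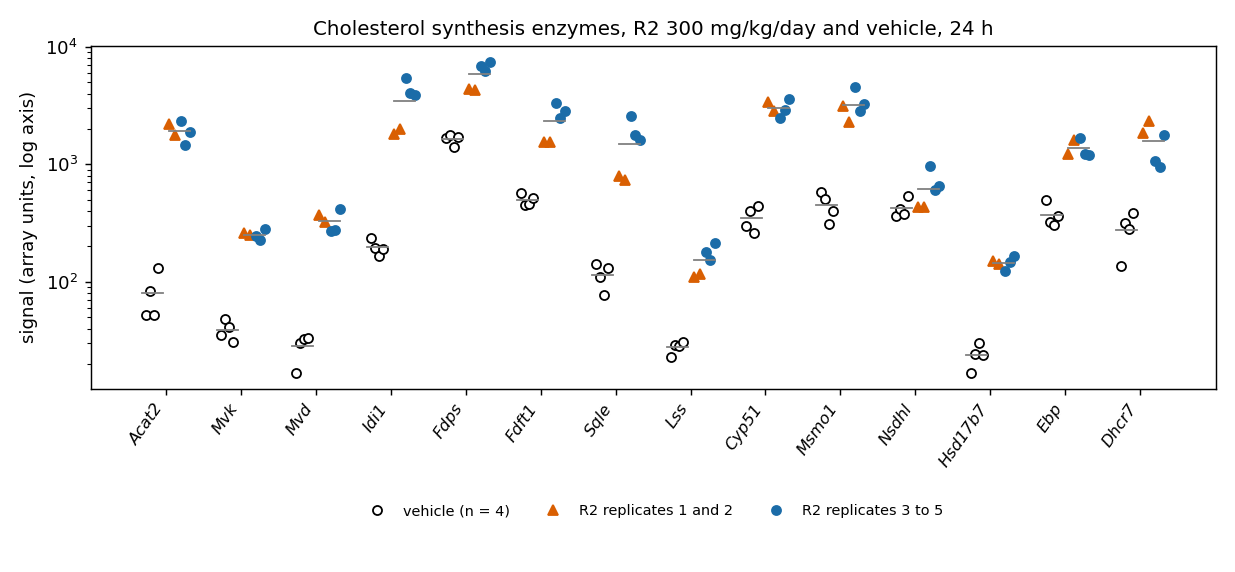
Signal (log axis) of the 14 cholesterol synthesis genes tested, in pathway order from left to right. Open circles are the 4 vehicle livers, triangles R2 replicates 1 and 2, filled circles R2 replicates 3 to 5, and grey lines group means. The R2 and vehicle livers do not overlap for 13 of the 14 genes, Nsdhl being the exception, and R2 replicates 1 and 2 are the lower R2 livers for Idi1 and Sqle.

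Genes induced through CAR and PXR were the second group that moved one way. Of 22 tested, 16 were higher and none lower, with a median of 1.32, and without R2 replicates 1 and 2 the count was 13. Cyp3a23-3a1, the main drug metabolising P450 in this list, gave 1916, 2695, 1976 and 2468 with vehicle and 9475, 9998, 11270.0, 11270.0 and 13236 with R2. No R2 liver came near the vehicle range, and the rise was 2.29 ± 0.16 (limma adjusted p = 1.29e-14) on 4 of 4 probe sets. Its R2 signals lie at the top of the common scale, which limits the fold that can be read, and Cyp3a genes may share signal. Cyp2b2, the P450 used as a marker of CAR activation in rats, gave 288, 699, 604 and 308 with vehicle and 2164, 2059, 2289.7, 2315 and 1898 with R2. Its groups were separate, with a rise of 2.27 ± 0.28 (limma adjusted p = 5.77e-08); near-identical Cyp2b copies may add to its signal.

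Other members of the group have roles around the P450s. The retinal dehydrogenase Aldh1a1 rose by 2.42 ± 0.29, the organic anion uptake transporter Slco1a4 by 2.09 ± 0.26 and the glucuronosyltransferase Ugt2b1 by 1.96 ± 0.31. Alas1, the rate-limiting enzyme of heme synthesis, gave 965, 622, 873 and 597 with vehicle and 2153, 1696, 2884, 2186 and 2001 with R2 and rose by 1.52 ± 0.22 (limma adjusted p = 1.18e-06). The canalicular exporter Abcc2 rose by 0.85 ± 0.23, but its adjusted p was 0.0846 without R2 replicates 1 and 2. Of 5 targets of the dioxin receptor AHR, 1 was higher and 1 lower: Cyp1a1 differed by 0.05 ± 0.30 and was not called, and Cyp1a2 had a difference of -0.96 ± 0.32 (limma adjusted p = 0.0319) with overlapping groups. The Cyp1a2 call was lost without vehicle replicate 1, 3 or 4 or R2 replicate 3 or 4 (limma adjusted p from 0.0698 to 0.102), and the higher gene was Nqo1. Without R2 replicates 1 and 2 the AHR counts were 0 higher and 1 lower. They were 0 and 0 without vehicle replicate 1, 0 and 1 without vehicle replicate 2, and 1 and 0 without vehicle replicate 3 or 4 or R2 replicate 3 or 4.

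Conjugation enzymes went both ways, with 8 of 29 higher and 7 lower (median -0.06), or 7 and 5 without R2 replicates 1 and 2. The count lower was 3 without R2 replicate 3 and 4 without vehicle replicate 2. The sulfotransferase Sult1b1 rose by 1.49 ± 0.24. Sult2a1, Sult2a2 and Sult2a6, hydroxysteroid sulfotransferases whose probe sets may share signal, rose by 0.94 ± 0.23, 1.46 ± 0.31 and 1.40 ± 0.30. Mgst3, a microsomal glutathione transferase outside that list, fell from 1022, 1306, 1452 and 1344 to 276, 296, 184, 533 and 355. The difference was -2.03 ± 0.24 (limma adjusted p = 2.59e-08) with no overlap between groups.

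Antioxidant genes of the NRF2 group rose, 11 of 15 higher and none lower (median 1.06), and 9 without R2 replicates 1 and 2. Gpx2, a glutathione peroxidase dim in the vehicle livers, gave 13.8, 16.9, 5.61 and 14.6 with vehicle and 53.9, 57.5, 146, 51.2 and 115 with R2 (a rise of 2.43 ± 0.39, limma adjusted p = 1.09e-05). Hmox1, which degrades heme, gave 81.9, 44.6, 64.9 and 48.8 with vehicle and 289, 271, 236, 228 and 262 with R2. The R2 livers lay close together and all above vehicle, a rise of 2.08 ± 0.26 (limma adjusted p = 4.07e-08). Glutathione reductase (Gsr) rose by 1.63 ± 0.20, the NADPH-forming malic enzyme (Me1) by 1.70 ± 0.35, and Gclc, the catalytic subunit of the first enzyme of glutathione synthesis, by 1.05 ± 0.21. The quinone reductase Nqo1 rose by 1.70 ± 0.52 (limma adjusted p = 0.0186), but its groups overlapped, its adjusted p was 0.112 without R2 replicates 1 and 2, and it was 0.086 and 0.0895 without vehicle replicate 1 and without vehicle replicate 2 in limma. Gstp1 (0.21 ± 0.23) and Prdx1 (0.37) were not called.

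Promoter sequence was read for these genes because NRF2 acts through a known element. Of the 15 NRF2 genes, 12 had a promoter in the RefSeq table (assembly GRCr8), and the 250 bases before the start were searched on both strands for the core letters of the antioxidant response element, TGACNNNGC. It was present in 5 of 12 (41.7%), in 4 of 12 cholesterol synthesis promoters (33.3%), in 3 of 22 proteasome promoters (13.6%) and in 2793 of 27457 promoters in the table (10.2%). The 5 windows are printed 5' to 3' on the strand of the gene with the match in capitals; Gclm, Gpx2 and Me1 were called higher, and Gstp1 and Prdx1 were not called. The letters were read from the reference and no binding was measured.
Gpx2 (chr6:101230034-101230072, minus strand): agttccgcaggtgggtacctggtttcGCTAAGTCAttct
Gclm (chr2:213031937-213031996, plus strand): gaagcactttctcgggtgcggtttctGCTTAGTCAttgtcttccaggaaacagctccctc
Me1 (chr8:96540378-96540437, minus strand): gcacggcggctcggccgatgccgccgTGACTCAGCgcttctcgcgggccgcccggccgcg
Gstp1 (chr1:210769733-210769792, minus strand): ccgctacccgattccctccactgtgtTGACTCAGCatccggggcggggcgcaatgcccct
Prdx1 (chr5:135383745-135383804, plus strand): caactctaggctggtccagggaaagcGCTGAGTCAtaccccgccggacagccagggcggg
In Gpx2 the match ends 5 bases before the start, and in Me1 159 bases before it. The sterol response element letters TCACNCCAC were found in 0 of 12 cholesterol synthesis promoters in the same window and in 0.976% of all promoters, which says only that these letters are not in these windows.

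Proteasome subunits rose by smaller amounts: 18 of 23 were higher and none lower, with a median of 0.95, and 18 were called without R2 replicates 1 and 2. The proteasome degrades ubiquitin-tagged proteins, with alpha and beta rings forming its core and ATPases its cap. Psmc4, a cap ATPase, gave 191, 160.3, 159 and 181 with vehicle and 542, 523, 591, 421 and 392 with R2 and rose by 1.49 ± 0.15 (limma adjusted p = 4.88e-10). The cap ATPase Psmc5 rose by 1.35 ± 0.16, and the core subunits Psma5 and Psma7 by 1.31 ± 0.16 and 1.30 ± 0.17. Psmb4 had the largest difference of the list (1.79 ± 0.54, limma adjusted p = 0.017), but R2 replicates 1 and 2 gave 3054 and 3312 and replicates 4 and 5 gave 387 and 452, within the vehicle range of 239 to 758, and 1 of 3 probe sets was called. Its adjusted p without those 2 arrays was 0.38, and in limma it was 0.0571 to 0.0804 when vehicle replicate 2 or 3 or R2 replicate 1 or 2 was left out alone.

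Heat shock and endoplasmic reticulum stress genes went both ways, with medians near that of all genes (-0.07). Of 14 heat shock genes 4 were higher and 1 lower (median 0.12), or 3 and 1 without R2 replicates 1 and 2. The co-chaperone Stip1 rose by 1.11 ± 0.21 and the small heat shock protein Hspb1 by 1.46 ± 0.33 (1 of 4 probe sets). The mitochondrial co-chaperonin Hspe1 fell from 1045, 1059.9, 951 and 1034 to 295, 251, 531, 850.2 and 856. Its difference was -1.05 ± 0.21 (1 of 2 probe sets), and its call was lost with each study fitted alone. Of 18 genes of endoplasmic reticulum stress 3 were higher and 2 lower (median -0.08). The count lower was 0 or 1 without vehicle replicate 1, 2 or 3 or R2 replicate 1, 3 or 5. It was 0 without R2 replicates 1 and 2 together. The pseudokinase Trib3 rose by 1.75 ± 0.45 and asparagine synthetase (Asns) by 0.89 ± 0.22, whereas the chaperone Hspa5 (-0.26 ± 0.20) and the transcription factor Ddit3 (0.16 ± 0.44) were not called.

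Of 12 p53 and DNA damage genes, 4 were higher and none lower (median 0.36), the same count without R2 replicates 1 and 2. Mdm2, the ubiquitin ligase that restrains p53, gave 26.0, 32.0, 31.0 and 26.2 with vehicle and 84.3, 62.3, 95.9, 87.2 and 107 with R2. All R2 livers were above vehicle, a rise of 1.49 ± 0.24 (limma adjusted p = 1.17e-05) on 3 of 3 probe sets. The stress cytokine Gdf15 rose by 1.52 ± 0.43 from near background, the repair endonuclease Apex1 by 1.26 ± 0.23, and Gadd45a by 0.75 ± 0.24. The Gadd45a call was lost without any 1 of the vehicle livers or of R2 replicates 3 to 5 (limma adjusted p from 0.0506 to 0.0787). Cdkn1a, the cell cycle inhibitor that p53 induces, had a difference of -1.22 ± 0.47 and was not called. Among 20 cell cycle genes 2 were higher and 3 lower. Cyclin D1 (Ccnd1) rose by 1.34 ± 0.25 on 3 of 5 probe sets. The other higher gene, Cdk2, rose by 1.85 ± 0.46 (limma adjusted p = 0.00307) from a vehicle mean of 2.62, near background. Its adjusted p in limma was 0.0732 without R2 replicates 1 and 2. Ccnb1, Cdk1 and Top2a, which act in later phases of the cycle, had differences of -1.32 ± 0.39, -1.16 ± 0.41 and -1.15 ± 0.30 at low signals. Groups overlapped for Ccnb1 and Cdk1. The Ccnb1 call was lost without vehicle replicate 2 (limma adjusted p = 0.0709) or R2 replicate 3 (0.0528), and that of Cdk1 without any 1 array other than vehicle replicate 3 or R2 replicate 1 (limma adjusted p from 0.0509 to 0.145), so that 1 cell cycle gene was lower without vehicle replicate 2 or R2 replicate 3. The calls of Ccnb1 and Top2a were lost without R2 replicates 1 and 2 (adjusted p = 0.101 and 0.0653).

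**Figure D3:**
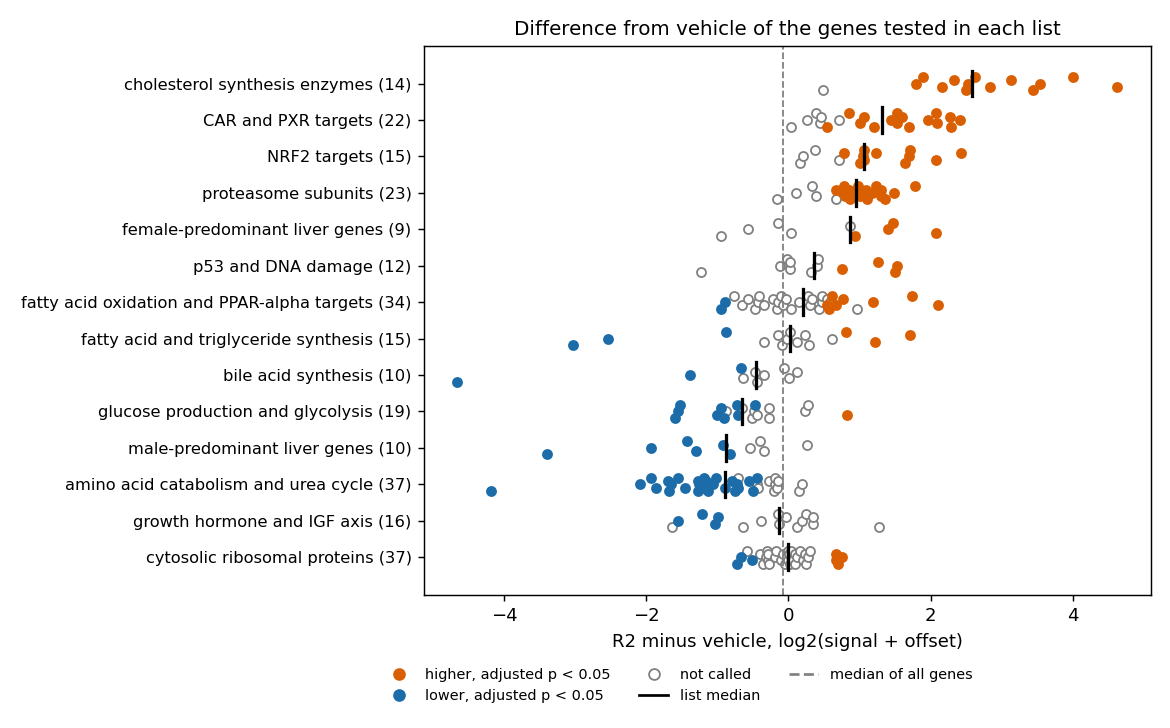
Difference from vehicle of every gene tested in 14 gene lists, with the number of genes tested in brackets. Filled points were called at a limma adjusted p under 0.05 (orange higher, blue lower), open points were not, black bars are list medians and the dashed line is the median of all genes (-0.07). The medians run from 2.57 for cholesterol synthesis to -0.90 for amino acid catabolism.

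The largest fall among called genes was that of Cyp7a1, the rate-limiting enzyme of bile acid synthesis from cholesterol. Cyp7a1 gave 71.8, 286, 109 and 121 with vehicle and 2.93, 2.4, 2.33, 1.94 and 2.05 with R2. Every R2 liver lay below every vehicle liver, as for 279 of the 3696 genes tested (7.55%). All 5 R2 signals lay near the bottom of the scale, and the fitted difference of -4.66 ± 0.63 (limma adjusted p = 3.66e-07) ranged from -5.33 to -3.59 over the settings tried, since it depends on the offset. In all, 3 of 10 bile acid synthesis genes were lower and none higher (median -0.46), and 2 were lower without R2 replicates 1 and 2. Acox2, which shortens the side chain, fell by 1.39 ± 0.21. The amino acid conjugating enzyme Baat had a difference of -0.67 ± 0.22, with overlapping groups and an adjusted p of 0.485 without R2 replicates 1 and 2 and of 0.0567 to 0.176 in limma without vehicle replicate 1 or 3 or R2 replicate 1 or 2 alone. Among 12 genes of bile acid and bilirubin transport 4 were higher and 4 lower (2 and 2 without those arrays, and 4 and 2 without R2 replicate 1), including the phospholipid exporter Abcb4 (1.19 ± 0.20, higher) and the exporter Abcc6 (-1.16 ± 0.24, lower).

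Amino acid catabolism and the urea cycle held the most genes that fell: 26 of 37 were lower and none higher, with a median of -0.90, and 19 were lower without R2 replicates 1 and 2. Serine dehydratase (Sds), which feeds serine into glucose production, gave 153, 177, 393 and 217 with vehicle and 3.42, 8.11, 8.61, 16.0 and 15.3 with R2. All R2 livers were far below the lowest vehicle liver, replicate 1 lowest, and the difference was -4.18 ± 0.66 (limma adjusted p = 6.55e-06; 2 of 3 probe sets). Of the sulfur amino acid enzymes named here, cystathionine gamma-lyase (Cth) went from 842, 1123, 1365 and 909 to 251, 237, 275, 254 and 200.1, with the R2 livers in a narrow band (-2.09 ± 0.23, limma adjusted p = 3.72e-09). Betaine-homocysteine methyltransferase (Bhmt) differed by -1.93 ± 0.27 and glycine N-methyltransferase (Gnmt) by -1.69 ± 0.31.

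Cps1, the mitochondrial enzyme that brings ammonia into the urea cycle, gave 2122, 2134, 2009 and 2059 with vehicle and 639, 386, 706, 932 and 710.0 with R2. Replicate 2 was the lowest liver and the groups were separate, a difference of -1.68 ± 0.22 (limma adjusted p = 1.35e-07) on both probe sets. Ddc, which decarboxylates aromatic amino acids, differed by -1.87 ± 0.21. Tyrosine aminotransferase (Tat) differed by -1.13 ± 0.28, and its adjusted p without R2 replicates 1 and 2 was 0.159.

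Sugar metabolism fell in part, with 9 of 19 genes of glucose production and glycolysis lower and 1 higher (median -0.65), or 7 and 1 without R2 replicates 1 and 2. Glycogen phosphorylase (Pygl), which releases glucose from glycogen, gave 234, 204, 233 and 208 with vehicle and 75.7, 60.3, 62.6, 88.5 and 82.0 with R2 and differed by -1.55 ± 0.18 (limma adjusted p = 1.17e-08) with no overlap. Pfkfb1, which sets fructose 2,6-bisphosphate, differed by -1.59 ± 0.31 (2 of 4 probe sets) and fructokinase (Khk) by -0.95 ± 0.18. The fructose transporter Slc2a5, outside that list, fell with a difference of -1.94 ± 0.29. Pck1, the rate-limiting enzyme of glucose production, had a difference of -0.87 ± 0.41 with overlapping groups and was not called.

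Fatty acid synthesis was split, with 3 of 15 genes higher and 3 lower (median 0.02), the same counts as without R2 replicates 1 and 2. Stearoyl-CoA desaturase (Scd) gave 1217, 2468, 3259 and 3357 with vehicle and 192, 181, 291, 329 and 613 with R2, a difference of -3.03 ± 0.46 (limma adjusted p = 2.91e-06). Srebf1, which encodes the SREBP-1 factor of fatty acid synthesis, gave 79.6, 98.5, 75.8 and 102 with vehicle and 31.9, 33.3, 4.79, 6.44 and 7.97 with R2. R2 replicates 1 and 2 were above the other R2 livers and below every vehicle liver, and the difference was -2.53 ± 0.32 (limma adjusted p = 1e-07). The elongase Elovl5 differed by -0.87 ± 0.20, while fatty acid synthase (Fasn) rose by 1.21 ± 0.30.

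Of 34 genes of fatty acid oxidation and PPAR-alpha, 8 were higher and 2 lower (median 0.21), and 6 were higher and 1 lower without R2 replicates 1 and 2. The count higher was 5 without vehicle replicate 2. The count lower was 1 without vehicle replicate 1 or 3 or R2 replicate 1 or 2. Eci1, the mitochondrial enoyl-CoA isomerase, gave 234, 327, 340.2 and 279.7 with vehicle and 873, 1220.5, 1225, 1676 and 1457 with R2, a rise of 2.10 ± 0.18 (limma adjusted p = 6.41e-12) on 2 of 3 probe sets. Ech1, a dienoyl-CoA isomerase, rose by 1.74 ± 0.15 and the peroxisomal thiolase Acaa1b by 1.19 ± 0.29. Cyp4a1, the fatty acid hydroxylase commonly read as a PPAR-alpha marker, had a difference of -0.66 ± 0.39 with overlapping groups and was not called.

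Among genes with sex-dependent liver expression, the male-predominant genes called were lower and the female-predominant genes called were higher. Of 10 male-predominant genes 6 were lower and none higher (median -0.87), and of 9 female-predominant genes 4 were higher and none lower (median 0.86); without R2 replicates 1 and 2 the counts were 5 and 4. Car3, a carbonic anhydrase abundant in male liver, gave 2622, 4082, 4304 and 2884 with vehicle and 687, 599.5, 109, 264 and 286 with R2. Replicate 3 was the lowest and all R2 livers were below vehicle, a difference of -3.39 ± 0.54 (limma adjusted p = 8.68e-06). The hydroxyacid oxidase Hao2 differed by -1.94 ± 0.39, the P450 Cyp2c23 by -1.43 ± 0.23 and the steroid enzyme Hsd3b5 by -1.30 ± 0.27. Cyp2c11, the main male-specific P450, had a difference of -0.35 ± 0.34 with overlapping groups and was not called. The female-predominant genes called were Cyp3a9 (2.08 ± 0.47) and the 3 Sult2a genes, so 3 of the 4 may share signal. Cyp3a9 is also counted in the CAR and PXR group. Of the 9 female-predominant genes 6 had a difference above 0, and their median was 0.40 without R2 replicate 5.

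The growth hormone axis, which sets much of that sex difference, had 4 of 16 genes lower and none higher (median -0.14), with the same counts without R2 replicates 1 and 2. The growth hormone receptor (Ghr) gave 1883, 1576, 1649.7 and 1417 with vehicle and 614, 648, 555, 1085 and 685 with R2, a difference of -1.22 ± 0.18 (limma adjusted p = 3.42e-06) on 3 of 3 probe sets. Igf1, the circulating growth factor that the hormone induces, gave 2411, 2884, 2766 and 2521 with vehicle and 1263, 1406, 892, 1479.7 and 1484 with R2. It was lower in every R2 liver, with a difference of -1.04 ± 0.19 (limma adjusted p = 7.08e-05) on 5 of 5 probe sets. Igfals, which carries it in plasma, differed by -0.98 ± 0.24. Socs2, a feedback inhibitor of the receptor, gave 110.4, 26.0, 83.2 and 43.9 with vehicle and 26.3, 18.6, 13.3, 19.0 and 13.6 with R2, with overlapping groups and a difference of -1.55 ± 0.47 (limma adjusted p = 0.0167). That call was lost without vehicle replicate 1 (limma adjusted p = 0.0958) or vehicle replicate 3 (0.0686).

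Steroid metabolism had 5 of 15 genes lower and 2 higher (median -0.45), or 5 and 1 without R2 replicates 1 and 2. Serpina6, the corticosteroid-binding globulin of plasma, gave 2109, 1923, 1484 and 2018 with vehicle and 433, 349, 343, 414 and 324 with R2. Its R2 livers lay together and far under vehicle, a difference of -2.32 ± 0.24 (limma adjusted p = 4.11e-10). The hydroxysteroid dehydrogenases Hsd17b6 and Hsd17b2 differed by -1.88 ± 0.23 and -1.27 ± 0.32. Of 15 glucocorticoid and fasting responsive genes, 4 were lower and none higher, and 3 were lower without those arrays. Among them the phosphatase Dusp1 gave 220.0, 284, 193 and 249 with vehicle and 23.8, 40.7, 44.7, 32.1 and 35.6 with R2 and differed by -2.66 ± 0.48 (limma adjusted p = 6.87e-05) on 3 of 3 probe sets. Igfbp1, a fasting-induced binding protein, was not called (0.35 ± 0.51). Tsc22d1, a growth factor-induced transcription regulator from the immediate early list, differed by -1.99 ± 0.41, while Egr1 (-1.21 ± 0.63) and Fos (-0.22 ± 0.31) were not called.

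**Figure D4:**
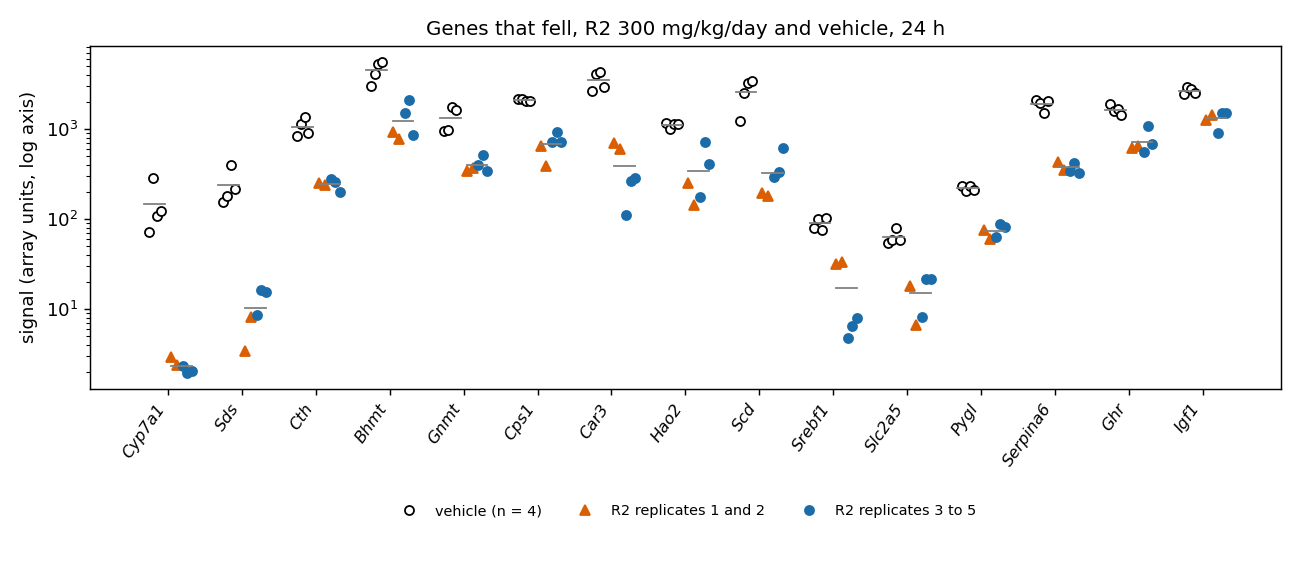
Signal (log axis) of 15 genes that fell with R2. Open circles are vehicle livers, triangles R2 replicates 1 and 2, filled circles R2 replicates 3 to 5, and grey lines group means. The groups do not overlap for any of the 15 genes, and Cyp7a1 lies at the bottom of the scale in all 5 R2 livers.

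Of 22 positive acute phase genes 2 were higher and 1 lower (median 0.03), a share near that of all genes, and 2 and 0 without R2 replicates 1 and 2. The count lower was 0 without vehicle replicate 2, 3 or 4 or R2 replicate 1 or 3, and 2 without R2 replicate 4. Lcn2, an iron-binding protein of the acute phase, gave 1.39, 17.6, 14.9 and 11.1 with vehicle and 46.4, 67.4, 77.7, 45.9 and 97.6 with R2 and rose by 2.47 ± 0.40 (limma adjusted p = 1.23e-05). Lbp, which binds endotoxin, gave 41.1, 31.9, 37.4 and 39.7 with vehicle and 235, 234, 84.2, 70.6 and 117 with R2, highest in replicates 1 and 2, and rose by 1.73 ± 0.25 (limma adjusted p = 1.75e-06). The classical rat acute phase protein A2m was not called (0.47 ± 0.49). Of 18 cytokines and NF-kB targets 2 were higher and 1 lower (median 0.17), again near the share of all genes, and 1 and 0 without R2 replicates 1 and 2. The chemokine Cxcl10 rose by 1.23 ± 0.33 with overlapping groups. The cytokine Il1b had a difference of 1.01 ± 0.34 and the nitric oxide synthase Nos2 one of -1.22 ± 0.39, both at low signals. The Il1b call was lost without vehicle replicate 1, 3 or 4 or R2 replicate 1, 2 or 5 (limma adjusted p from 0.0724 to 0.12), and that of Nos2 without vehicle replicate 3 or 4 or R2 replicate 4 (0.0533 to 0.116). Without vehicle replicate 3 or 4 the counts were 1 and 0, without R2 replicate 1 or 2 they were 1 and 1, and without R2 replicate 5 they were 1 and 2. Complement and coagulation had 5 of 20 lower and none higher (median -0.32), of which 2 were called without R2 replicates 1 and 2 and 3 without vehicle replicate 1 or 4. In nuclear receptors and liver transcription factors 7 of 27 were lower and 1 higher, and 4 were lower without those arrays, 3 without vehicle replicate 1 or 3 and 4 without R2 replicate 1. The homeobox factor Onecut1 differed by -2.34 ± 0.75 (limma adjusted p = 0.0607 without both arrays, and 0.0511 to 0.106 without vehicle replicate 1 or 3 or R2 replicate 3), Foxa1 by -1.15 ± 0.28 and the retinoid receptor Rxrg by -1.11 ± 0.21 (1 of 3 probe sets).

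Of 9 clock genes, 2 were lower and 1 higher, or 1 and 0 without R2 replicates 1 and 2, and none was higher without vehicle replicate 3. The output factor Dbp gave 15.5, 14.4, 12.9 and 13.2 with vehicle and 5.04, 3.81, 1.88, 2.29 and 2.9 with R2, a difference of -1.50 ± 0.43 (1 of 2 probe sets), and Per2 differed by -1.35 ± 0.36 at signals near background (limma adjusted p = 0.0638 without those arrays). The lysosomal list had 5 of 24 higher and 3 lower (5 and 1 without those arrays, 6 and 1 without vehicle replicate 1, and 7 and 5 without R2 replicate 4); the protease cathepsin D (Ctsd) gave 242, 154, 140.1 and 129.6 with vehicle and 419.8, 466, 372, 263 and 306 with R2 and rose by 1.14 ± 0.23 (limma adjusted p = 0.000346) on both probe sets, while Cd63 was not called (0.44 ± 0.26). Cidea, a lipid droplet protein, rose by 1.14 ± 0.32 and was 1 of 5 droplet genes called (2 without R2 replicates 1 and 2). Of 26 cytoskeleton and remodelling genes 3 were higher and 2 lower (median 0.17), with the same counts without R2 replicates 1 and 2. Over all genes tested 6.63% were higher and 8.79% lower. The epithelial keratins Krt8 and Krt18 of that list rose by 1.22 ± 0.23 and 0.83 ± 0.17. Anxa3 (-1.01 ± 0.31, overlapping groups) and Lgals1 were lower. The Anxa3 call was lost without vehicle replicate 2 or 3 or R2 replicate 3, and the Lgals1 call without vehicle replicate 4.

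Calls among cytosolic ribosomal proteins rested on R2 replicates 1 and 2. Of 37 genes 4 were higher and 3 lower (median 0.00), against 6.63% higher and 8.79% lower over all genes tested. The count lower was near that share. Without both arrays none was higher and 1 was lower. The counts were 1 higher and 1 lower without replicate 1 alone, 1 and 0 without replicate 2 alone, and 3 and 1 without vehicle replicate 1. Rpl3 gave 3934, 4045, 2067, 1199 and 1437 with R2 against 1753, 1356, 1163 and 1316 with vehicle, so that only replicates 1, 2 and 3 were above the vehicle range, and its second probe set was not called. Its call was lost without vehicle replicate 2, 3 or 4 or R2 replicate 1 or 2 (limma adjusted p from 0.0618 to 0.156). Of 34 respiratory chain genes 4 were lower (median -0.23), also near the share of all genes, and 1 without R2 replicates 1 and 2 together. Leaving out any 1 array other than R2 replicate 4 or 5 gave 1 or 2.

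Few markers of other cell types were called, against 15.4% of all genes tested. The lists are short, so a count of 0 in any 1 of them is little below that share. None of 6 Kupffer cell, 5 sinusoidal endothelium, 7 T and NK cell, 2 B cell, 3 neutrophil, 4 erythroid, 5 mast cell or 5 muscle and fat markers was called. The summed signal of the macrophage markers was 997 to 1254 with vehicle and 1125 to 1322 with R2, and that of the endothelial markers 116 to 152 and 116 to 155. Of 10 stellate markers 1 was called, the smooth muscle actin Acta2, with 38.6, 39.6, 41.4 and 48.9 in vehicle and 0.957, 0.802, 27.3, 11.7 and 33.5 in R2; replicates 1 and 2 were lowest, and the adjusted p was 0.362 without them and 0.0502 in limma without replicate 2 alone (1 of 3 probe sets was called). The stellate sum was 1842 to 2862 with vehicle and 1541 to 2734 with R2. Of 5 bile duct markers Epcam was higher (1.08 ± 0.30; limma adjusted p = 0.0627 without vehicle replicate 1), and the sum was 49.7 to 81.5 with vehicle and 80.1 to 112.2 with R2, overlapping by a small margin. Of 7 pancreas markers Cela1 and Amy2a3 were lower (-0.79 ± 0.18 and -0.65 ± 0.18, the latter with a limma adjusted p of 0.0933 without vehicle replicate 3), with a sum of 396 to 604 with vehicle and 280 to 376 with R2. Of 9 hepatocyte markers only Cps1 was called, and it was lower. The median difference of the 9 was -0.18, and 2 of them had a difference above 0. Their mean on the log2 scale was 12.25 to 12.39 with vehicle and 11.93 to 12.13 with R2. Their sum was 55770 to 59920 with vehicle and 51010 to 56140 with R2. In whole liver, fewer cells of a type and less RNA per cell cannot be told apart.

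R1 at 100 mg/kg/day, from study 1, gives a second compound at the same sampling time. Compound, dose and study differ together, each has its own vehicle, and those vehicles differed at 359 of 6361 probe sets (5.64%), of which 167 were higher in study 4 (2.63%) and 192 lower (3.02%). R1 100 against its vehicle (3 arrays each) called 407 probe sets (6.4%), and by gene 3.19% higher and 2.79% lower. The test of R2's difference minus R1's called 0 probe sets in limma, with 586 at an unadjusted p under 0.05 and a lowest adjusted p of 0.0502. That count ran from 0 to 6 under other settings and from 0 to 9 when 1 array was left out, the 9 without R2 replicate 4. The absence of calls does not show that the compounds act alike.

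For cholesterol synthesis 13 of 14 genes were higher with each compound, with medians of 2.57 for R2 and 2.42 for R1. Acat2 differed from vehicle by 4.62 ± 0.33 with R2 and 4.42 ± 0.40 with R1, and the difference between them was 0.20 ± 0.51. The CAR and PXR medians were 1.32 and 1.25 (16 and 11 of 22 higher), and the NRF2 medians 1.06 and 1.22 (11 and 10 of 15 higher). Cyp2b2 rose by 2.27 ± 0.28 with R2 and its difference with R1 was 0.92 ± 0.35, a gap of 1.36 ± 0.45 (limma adjusted p = 0.316). The study 4 vehicles averaged 475 ± 208 (SD, n = 4) against 1445 ± 190.3 (SD, n = 3) for those of study 1, a called difference of -1.70 ± 0.32 (limma adjusted p = 0.000525), while the treated means were 2145 ± 172 (SD, n = 5) with R2 and 2818 ± 978 (SD, n = 3) with R1. The median of amino acid catabolism was -0.90 with R2 (26 of 37 lower) and -0.49 with R1 (11 of 37 lower). The male-predominant median was -0.87 with R2 and -0.23 with R1 (6 and 0 of 10 lower). The female-predominant median was 0.86 with R2 and 1.01 with R1 (4 and 3 of 9 higher).

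Single genes stood farther apart without passing the test. Socs2 gave differences of -1.55 ± 0.47 with R2 and 1.81 ± 0.57 with R1, a gap of -3.37 ± 0.73 (limma adjusted p = 0.0862). The study 4 vehicles averaged 65.9 ± 38.1 (SD, n = 4) against 7.99 ± 3.52 (SD, n = 3) for those of study 1, a called difference of 2.52 ± 0.53 (limma adjusted p = 0.00191), and the treated means were 18.1 ± 5.27 (SD, n = 5) with R2 and 34.8 ± 9.97 (SD, n = 3) with R1. The vehicles of the next 3 genes were not called as different, which does not show that they were alike. Cyp7a1 gave differences of -4.66 ± 0.63 with R2 and -1.44 ± 0.77 with R1, a gap of -3.22 ± 1.00 (limma adjusted p = 0.309). Its study 4 vehicles averaged 147 ± 94.9 (SD, n = 4) and those of study 1 94.2 ± 111 (SD, n = 3). That vehicle difference was 1.51 ± 0.72 (limma adjusted p = 0.235). Mgst3 gave differences of -2.03 ± 0.24 with R2 and -0.52 ± 0.30 with R1, a gap of -1.50 ± 0.38 (limma adjusted p = 0.141). Spink1, a secreted protease inhibitor, gave 23.7, 54.8, 27.5 and 72.1 with its vehicle and 2.51, 3.04, 2.64, 16.6 and 14.3 with R2 (-2.26 ± 0.45), against -0.11 ± 0.55 with R1, a gap of -2.15 ± 0.71 (limma adjusted p = 0.316).

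**Figure D5:**
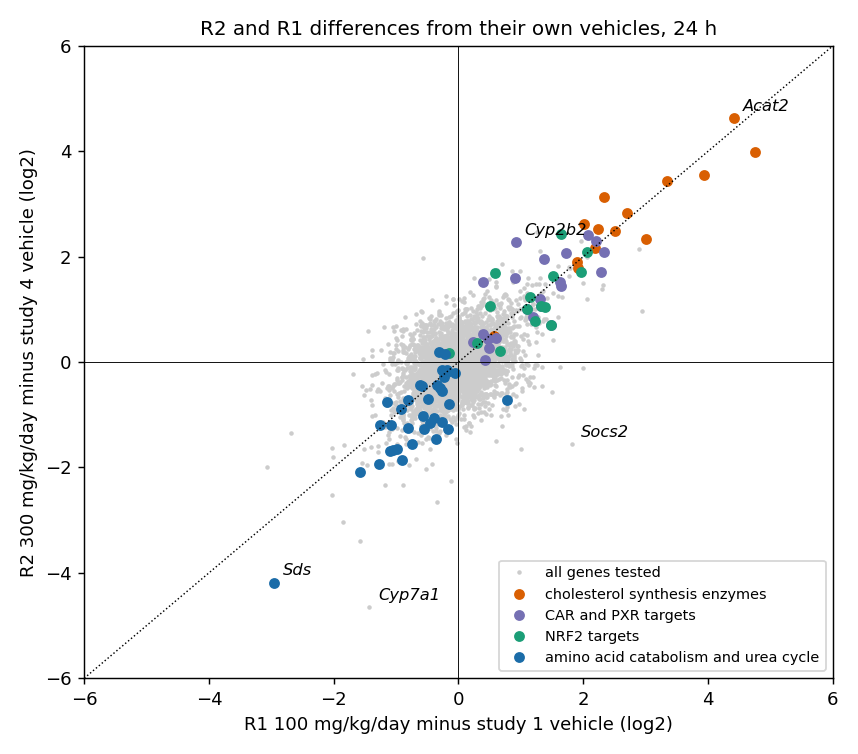
Difference from vehicle with R2 300 mg/kg/day (vertical, study 4) against that with R1 100 mg/kg/day (horizontal, study 1), log2 scale, for all genes tested (grey) and 4 lists (colours); the dotted line marks equal values. Acat2 lies near the line at 4.62 and 4.42, and Socs2 lies at -1.55 and 1.81.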

How the data were processed

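Liver RNA was measured on 1-colour Affymetrix Rat Genome U34 arrays (chip A), and the values used are the signal intensities that the authors deposited, made with MAS5 per the submitters' processing notes. The sorted values of all 44 arrays are identical, so the deposited intensities were quantile normalized to 1 distribution; the labels' protocols do not state that step, and it removes any difference in total RNA. Of 8799 probe sets 59 controls were left out, and of the other 8740, 7006 had 1 gene symbol in the platform annotation, 308 several and 1426 none. Before log2, 2.89 (the 20th percentile) was added to each intensity, and a probe set entered the tests if its highest group mean reached 9.17 (the 40th percentile). limma 3.58.1 in R 4.3.3 fitted 11 group means with a mean-variance trend and 33 residual degrees of freedom. The fit was tested on simulated data. Precision is limited by the number of arrays. The gene lists, the genes named (the 15 largest non-overlapping rises and falls, up to 5 called members per list, and fixed liver genes, of which a part is given) and the alternatives were chosen with earlier results of these data known. Lists overlap, and probe sets without 1 symbol are not named here.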

Additional observations from a re-analysis of the deposited data

Results flagged for a closer look

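In 236 groups of values, 7 held 1 liver far from the rest of its group, by Dixon's criterion on the log2 scale. The groups were the vehicle and the R2 livers of each gene named other than Anxa3, Cdk2 and Lgals1. Chance alone gives about 1 in 20 groups. In the R2 group, replicate 4 was low for Hsd17b2 (27.6, the others 66.0 to 69.3) and for Sult2a2 (245.7, the others 492 to 607). R2 replicate 3 was low for Cd63 (120.0, the others 231 to 299) and for Hspa5 (314, the others 535 to 662), and R2 replicate 2 for Fos (5.45, the others 19.7 to 28.9). Among vehicle livers, replicate 2 was high for Egr1 (599.5, the others 164 to 203) and replicate 1 was low for Mvd (16.8, the others 30.1 to 33.6).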

How the results depend on the processing

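The 974 probe sets called for R2 became 488 with the replicate number as a block (study 4 alone, without R2 replicate 5), 577 with 1 probe set per gene and 598 with the mean over a gene's probe sets, which test fewer features. Under the other settings the count was 662 to 1042 (679 with each study fitted alone), and 793 to 1093 when 1 array was left out. Deviations of same-numbered livers correlated at -0.09 to 0.03, and those of differently numbered livers at -0.13 to 0.18. Whether same-numbered livers shared a dosing or processing day was not tested. For R2's difference minus R1's, 0 became 3 with the offset at the 40th percentile or with no filter on dim probe sets, 2 with a filter at the 60th percentile, a filter on the 2 study 4 groups, median centring, no mean-variance trend or quantile normalization over the groups compared, 1 with those studies fitted alone, 5 with arrays centred on ribosomal protein genes (which put its median at -0.28) and 6 with arrays weighted by quality; leaving out 1 array gave 0 to 9. The 359 probe sets between vehicles became 714 with array weights, 163 with 1 probe set per gene and 184 with the mean, and 193 to 291 when 1 array was left out.

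Of 154 called genes under the naming rule, 85 were called under every alternative tried and 0 reversed; 51 lost the call with the block, 45 without R2 replicates 1 and 2 and 47 when 1 array was left out. Dim genes are limited by the signal over background, and Cyp3a23-3a1 by the top of the scale.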
